A study of Macaca mulatta with 6 samples.

Results

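Probe sets for the glycolysis enzymes of neurons and glia were examined in laser-captured serotonin neurons of female rhesus macaques. A probe set, a group of short probes read as 1 value, belonged here if the array's annotation gave it exactly 1 gene symbol and that symbol was HK1, GPI, ALDOA, ALDOC, TPI1, PGK1, PGAM1, ENO1, ENO2 or LDHB. This gave 18 probe sets of 52766 that are not controls, for 7 of the 10 genes. HK1 and ENO1 had 4 each, GPI 3, ALDOA, ALDOC and TPI1 2 each, and ENO2 1. No probe set with 1 symbol was named for PGK1, PGAM1 or LDHB, and these are not analysed here. The choice of genes used no measured value, but it was made with earlier results of these data known.

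The study asks how ovarian steroids change gene expression in these neurons, which lie in the dorsal raphe nucleus of the brainstem. It used 6 monkeys with 1 array each. Of these, 2 received placebo, 2 estrogen, and 2 estrogen together with progesterone, the steroids from Silastic implants under the skin over 1 month. The placebo titles alone include Ovx, which is taken to mean ovariectomized. Age and steroid dose are not given in the labels. Each array stands for its own animal as labelled, so the small number of animals bounds how precise any difference can be.

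Glycolysis splits glucose into pyruvate in the cytosol and yields ATP without oxygen. Several steps have more than 1 enzyme form encoded by separate genes, and in the brain these forms differ between cell types: aldolase C is most abundant in astrocytes and in some neurons, and gamma enolase, encoded by ENO2, is a classical marker of mature neurons. Hexokinase 1 is the main hexokinase of the brain and binds the outer mitochondrial membrane. Lactate made by glial glycolysis can be passed to neurons through monocarboxylate transporters.

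The arrays differed in signal quality in a way that followed the groups only in part. The floor of an array, set by the 59 control probe sets that should find no target (their 95th percentile), was at 216 and 221 in the placebo animals, at 29.99 and 51.6 under estrogen, and at 74.9 and 283 under both hormones. Between 28.7% and 62.2% of all probe sets lay above it. Of the glycolysis probe sets, 13 and 10 of 18 exceeded it in the placebo animals, all 18 in each estrogen animal, and 16 and 6 in those on both hormones. The control probe sets at the 3′ and 5′ ends of GAPDH, itself a glycolysis enzyme, gave signal ratios of 2374 and 1413 in the placebo animals, 28.0 and 3.41 in the estrogen animals, and 22.0 and 287 in the estrogen+progesterone animals. A high ratio means that little of the labelled transcript reached the 5′ end. The 5′ signals were 31.2 and 77.8 in the placebo animals and 263 on estrogen+progesterone 2, each below the floor of its array. The size of these 3 ratios is therefore imprecise. The term low-signal is used for placebo 1, placebo 2 and estrogen+progesterone 2, which each had fewer probe sets above the floor than the mean of the 6, and high-signal for the remaining 3. Of 18 glycolysis probe sets, 16 exceeded the floor on every high-signal array and 5 on every low-signal array.

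**Figure D1:**
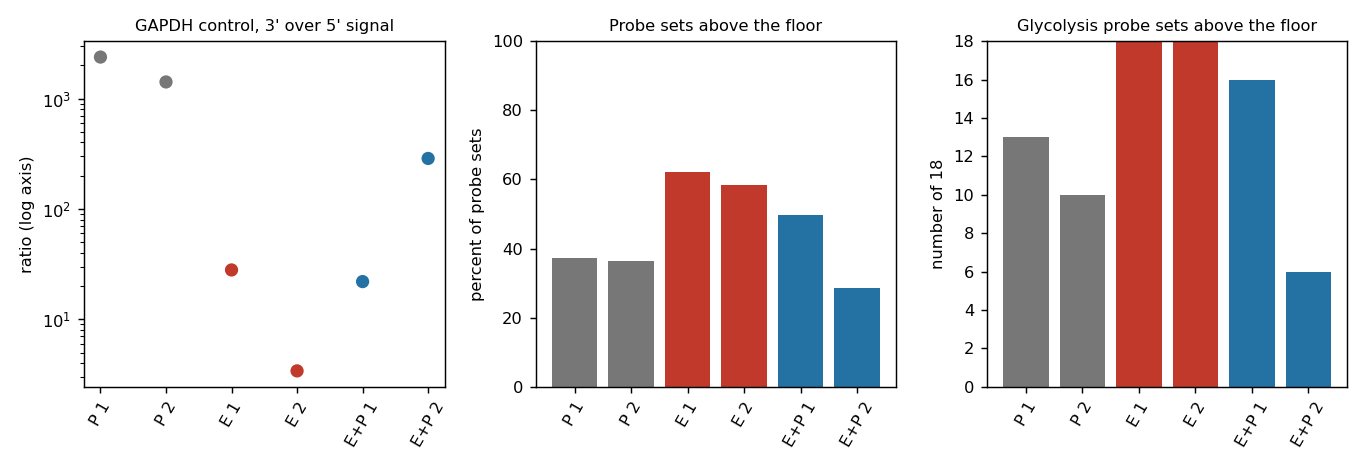
Quality of the 6 arrays (P placebo, E estrogen, E+P both hormones, 1 monkey each). The left plot gives the ratio of the GAPDH 3′ to the 5′ control signal on a log axis. The bars give the percent of all probe sets and the number of the 18 glycolysis probe sets above the floor of the array. Both placebo arrays have the highest ratios, 2374 and 1413, over 5′ signals below the floor. Estrogen+progesterone 2 has 6 members above the floor, the fewest.

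The label of the captured cells was checked against marker genes. TPH2, whose enzyme starts serotonin synthesis, exceeded the floor in the estrogen animals and in none of the other 4. TPH2 signals were 126 and 211 in the placebo animals, 54.0 and 63.2 in the estrogen animals, and 12.5 and 243 in the estrogen+progesterone animals. Both estrogen signals lay below both placebo signals, over floors of 29.99 and 51.6 against 216 and 221. After normalization, estrogen minus placebo was -0.06 for TPH2, which was not tested. The serotonin transcription factor gene FEV was above the floor on all 6. Of the 6 named serotonin neuron markers, 3 and 4 exceeded it in the placebo animals. The counts were 5 and 6 under estrogen, and 4 and 2 under both hormones. HTR1A, a serotonin receptor gene, exceeded the floor on estrogen 2 alone, at 56.2. On placebo 1 its signal was higher, at 175, but below the floor. The summed signal of the 6 serotonin markers was 1797 and 1628, 1537 and 852, and 1387 and 1488 in that order, lowest on estrogen 2. Signal below the floor enters these sums, and on estrogen 2 alone did all 6 exceed the floor. Of the 4 tested, 3 had an estrogen minus placebo difference below 0. Astrocyte markers were above the floor for 8 of 10 named genes in each placebo animal, 9 and 10 in the estrogen animals, and 9 and 7 in the estrogen+progesterone animals. Their summed signal was 26181 and 24185 in the placebo animals, 67236 and 75928 in the estrogen animals, and 73588 and 4815 in the estrogen+progesterone animals. General neuronal markers gave summed signals of 7663 and 13118, 26275 and 28133, and 25799 and 1673 in the same order. For 4 named oligodendrocyte markers the sums were 34358 and 48513, 41625 and 56390.5, and 56637 and 2884. Single genes differed in direction. Estrogen minus placebo was below 0 for 2 of 9 tested astrocyte markers, 2 of 4 neuronal and 1 of 4 oligodendrocyte markers. No marker of these 3 lists was at 0 on any array. Their part in the glycolysis values was not tested. In such material, fewer cells of a type and less RNA per cell cannot be told apart.

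Differences between treatments were taken on log2 values after adding 16 to the signal and quantile normalization, and tested with limma over all 6 arrays. Of the 18 probe sets, 17 entered the test. The exception is GPI set 3, whose mean was below the median of all probe sets. Probe sets are numbered within a gene from the highest mean over the arrays down. Adjusted p-values are Benjamini-Hochberg over all 26383 probe sets tested, and a call is an adjusted p under 0.05. No glycolysis probe set passed in any of the 3 comparisons, and neither did any other probe set on the array.

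**Figure D2:**
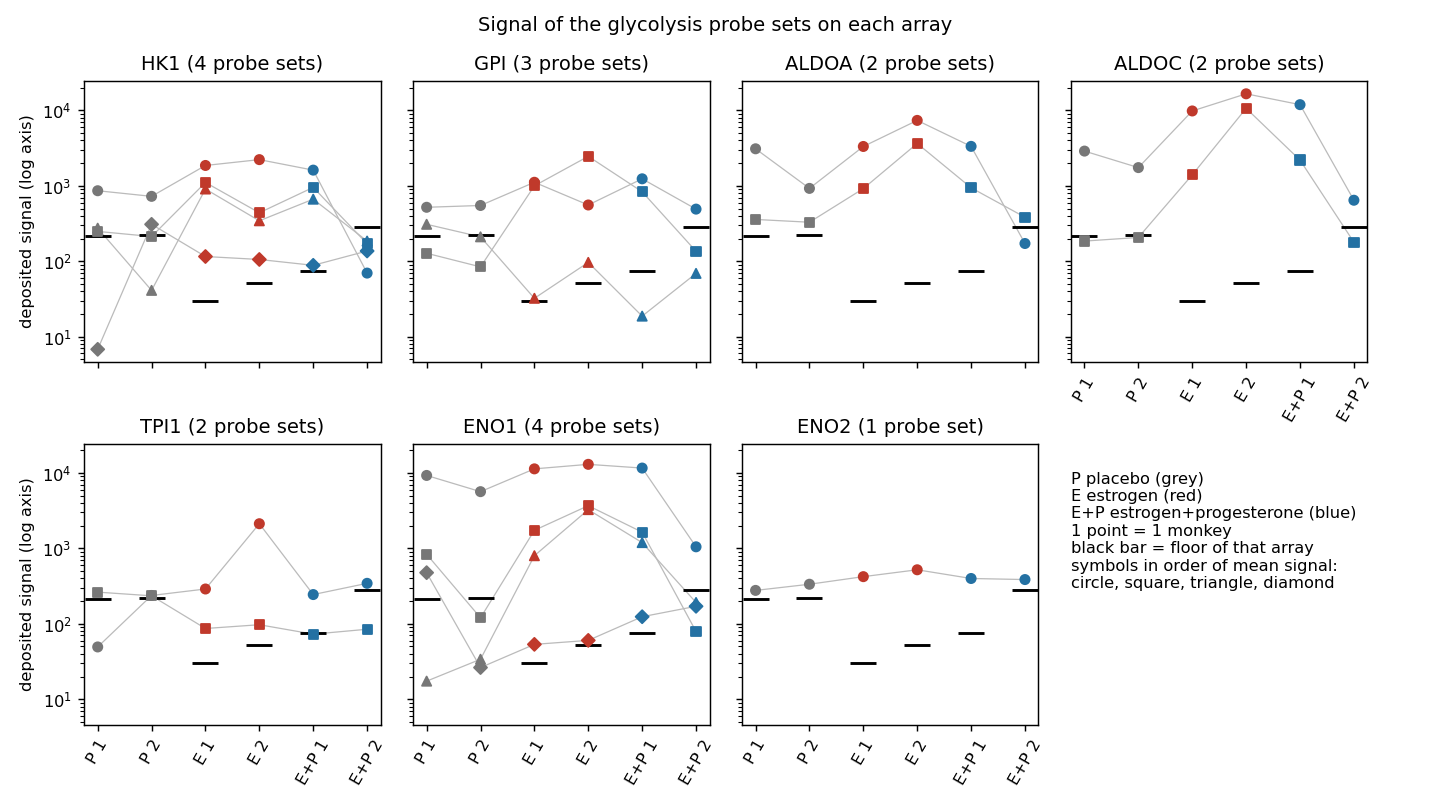
Deposited signal (log axis) of each glycolysis probe set on each array, 1 panel per gene; a point is 1 monkey, symbols separate the probe sets of a gene in order of mean, and black bars are the floors of the arrays. ALDOC set 1 lies between 9817 and 16566 on the high-signal arrays and between 644 and 2885 on the low-signal arrays, while ENO2 stays between 277 and 519. On the low-signal arrays ENO2 is at 1.28 to 1.51 times the floor.

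The upper part of the pathway is covered by HK1, hexokinase 1, which traps glucose as its phosphate, and by GPI, which turns glucose phosphate into fructose phosphate. HK1 set 1 (MmuSTS.3054.1.S1_at) gave signals of 861 and 725 in the placebo animals, 1861 and 2224 in the estrogen animals, and 1614 and 69.8 in the estrogen+progesterone animals. The last value was below the floor, and all others were above it. On the normalized scale the estrogen and placebo animals overlapped, and the estrogen mean was 0.23 ± 1.24 log2 units higher (standard error, 2 animals in each group; adjusted p = 0.967 from limma). Its group means were 10.36 with estrogen, 10.13 with placebo and 8.02 with both hormones, where the 2 animals differed by 4.18. HK1 set 2 (MmugDNA.16459.1.S1_at) had 249 and 213 in the placebo animals, 1108 and 439 in the estrogen animals, and 953 and 171 in the estrogen+progesterone animals. HK1 set 3 (MmuSTS.342.1.S1_s_at) had 275 and 41.2, 907 and 344, and 665 and 185. For both of these the estrogen animals lay above the placebo animals, by 1.64 ± 1.02 and 2.27 ± 1.11. With placebo, set 2 was at 1.15 and 0.96 times the floor and set 3 at 1.27 and 0.19 times. The size of these differences is therefore imprecise. HK1 set 4 split the placebo pair, at 6.81 and 309, and lay between 88.4 and 137 on the other 4 arrays.

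GPI set 1 (MmugDNA.37076.1.S1_at) was above the floor on all 6 arrays, with signals of 519 and 549 in the placebo animals, 1114 and 557 in the estrogen animals, and 1238 and 491 in the estrogen+progesterone animals. Its normalized group means of 9.44, 9.29 and 9.60 did not differ beyond their spread, and the estrogen minus placebo difference of -0.15 ± 0.81 turned positive without normalization (0.55), with median-centering (1.80) and with scaling to hybridization controls (2.95). GPI set 2 (MmugDNA.15667.1.S1_at) behaved otherwise. It had 128 and 84.3 in the placebo animals, 999.7 and 2459 in the estrogen animals, and 834 and 136 in the estrogen+progesterone animals, below the floor on all 3 low-signal arrays. Estrogen minus placebo was 3.74 ± 1.05. Set against the placebo floors, this probe set was higher with estrogen by at least 6.41-fold, a bound that takes no account of animal-to-animal spread or of array signal. With estrogen 2 left out the bound was 4.25-fold, and with estrogen 1 left out 9.66-fold. GPI set 3 ran the other way, from 309 and 211 in the placebo animals to 32.3 and 96.7 under estrogen and 18.8 and 69.1 under both hormones; its estrogen minus placebo difference of -0.93 was 0.52 when scaled to hybridization controls. The 3 GPI probe sets thus spanned 4.66 log2 units in this 1 comparison, and they give no single answer for the gene.

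Aldolase splits fructose bisphosphate into a pair of triose phosphates. ALDOA encodes the form found in most tissues, ALDOC the brain form. ALDOA set 1 (MmugDNA.3786.1.S1_s_at) read 3095 and 924 in the placebo animals, 3322 and 7359 in the estrogen animals, and 3332 and 172 in the estrogen+progesterone animals. The estrogen and placebo animals overlapped after normalization (0.33 ± 1.31), and the 2 animals with both hormones stood 4.03 log2 units apart. ALDOA set 2 (MmugDNA.6452.1.S1_s_at) was above the floor everywhere, at 358 and 329, 919 and 3643, and 942 and 384, with estrogen minus placebo at 1.84 ± 0.91 (adjusted p = 0.648 from limma). The annotation also ties 1 further ALDOA probe set to a pseudogene, and signal shared with such copies cannot be told apart here.

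ALDOC set 1 (MmuSTS.2081.1.S1_at) was above the floor on all 6 arrays. Its signals were 2885 and 1743 in the placebo animals, 9817 and 16566 in the estrogen animals, and 11901 and 644 in the estrogen+progesterone animals. Both estrogen animals lay above both placebo animals, and the animals with both hormones lay on either side of the placebo pair. Normalized means were 13.38 with estrogen, 11.61 with placebo and 11.53 with both hormones. Estrogen exceeded placebo by 1.78 ± 1.03 log2 units (adjusted p = 0.667 from limma). ALDOC set 2 had 185 and 207 in the placebo animals, 1398 and 10639 in the estrogen animals, and 2192 and 179 in the estrogen+progesterone animals. It was below the floor on all 3 low-signal arrays, and its estrogen minus placebo difference of 4.15 ± 1.31 corresponds to at least 15.4-fold over the placebo floors, for this probe set alone. That bound was 5.41-fold without estrogen 2 and 43.7-fold without estrogen 1. The 2 estrogen animals differed by 7.61-fold in its signal and by 1.69-fold in that of set 1. Between the same 2 arrays the GAPDH 5′ control differed by 8.65-fold and the 3′ control by 1.05-fold. Where each ALDOC probe set lies along the transcript is not given in the sources used here.

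TPI1, triose phosphate isomerase, interconverts the trioses that aldolase makes. TPI1 set 1 was measured at 49.3 and 237 in the placebo animals, 289 and 2117 in the estrogen animals, and 244 and 343 in the estrogen+progesterone animals. Both hormone groups lay above placebo without overlap, by 2.85 ± 1.04 for estrogen (unadjusted p = 0.0207, adjusted p = 0.635 from limma) and 1.68 ± 1.04 for both hormones. With signal class as a covariate the first of these was 2.96, and with the GAPDH 3′ over 5′ ratio it was 0.41. TPI1 set 2 (MmugDNA.1092.1.S1_at) had 262 and 235 in the placebo animals, 86.6 and 97.1 in the estrogen animals, and 72.8 and 84.6 in the estrogen+progesterone animals. Its signals were 1.22 and 1.06 times the floor with placebo and 2.89 and 1.88 times with estrogen. After normalization it was at -0.36 ± 0.81 for estrogen minus placebo, against 2.85 for set 1, and at 1.11 when scaled to hybridization controls.

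Enolase makes phosphoenolpyruvate near the end of the pathway. ENO1 encodes the alpha form, abundant in glia and most other tissues, and ENO2 the gamma form of neurons. ENO1 set 1 (MmugDNA.41786.1.S1_s_at) had signals of 9236 and 5632 in the placebo animals, 11289 and 12958 in the estrogen animals, and 11568 and 1047 in the estrogen+progesterone animals, all above the floor. Its normalized means were 13.17 with estrogen, 12.92 with placebo and 12.18 with both hormones, and estrogen minus placebo was 0.24 ± 0.85. ENO1 set 2 (MmugDNA.38524.1.S1_at) had 834 and 120, 1731 and 3672, and 1636 and 79.0. ENO1 set 3 had 17.4 and 33.9 in the placebo animals, 797 and 3254 in the estrogen animals, and 1190 and 191 in the estrogen+progesterone animals. This probe set was below the floor on all 3 low-signal arrays.

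ENO1 set 3 gave the largest difference of the 18 in the comparison of estrogen with placebo, 5.16 ± 1.09 (unadjusted p = 0.000808, adjusted p = 0.635 from limma), or at least 6.69-fold over the placebo floors. Without estrogen 2 this bound was 3.64-fold, and without estrogen 1 it was 12.3-fold. ENO1 set 4 (MmugDNA.30523.1.S1_at) stood at 475 and 26.3 with placebo and between 53.3 and 170 on the other arrays, with no order by treatment. The ENO1 probe sets therefore ran from -0.26 to 5.16 in this comparison, the widest range of the 7 genes; the lower end, set 4, was at 0.26 with median-centering and 1.42 when scaled to hybridization controls.

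ENO2 (MmugDNA.3712.1.S1_at) was the most even of the 18. Its signals were 277 and 334 in the placebo animals, 421 and 519 in the estrogen animals, and 398 and 385 in the estrogen+progesterone animals, a 1.88-fold range over all 6 animals. All were above the floor of their array. Placebo was lowest without overlap, at a normalized mean of 8.18 against 8.79 with estrogen and 8.68 with both hormones. The differences from placebo, 0.61 ± 0.80 and 0.50 ± 0.80, were smaller than their standard errors (adjusted p = 0.843 and 0.992 from limma). Between the hormone groups the difference was -0.11 ± 0.80.

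**Figure D3:**
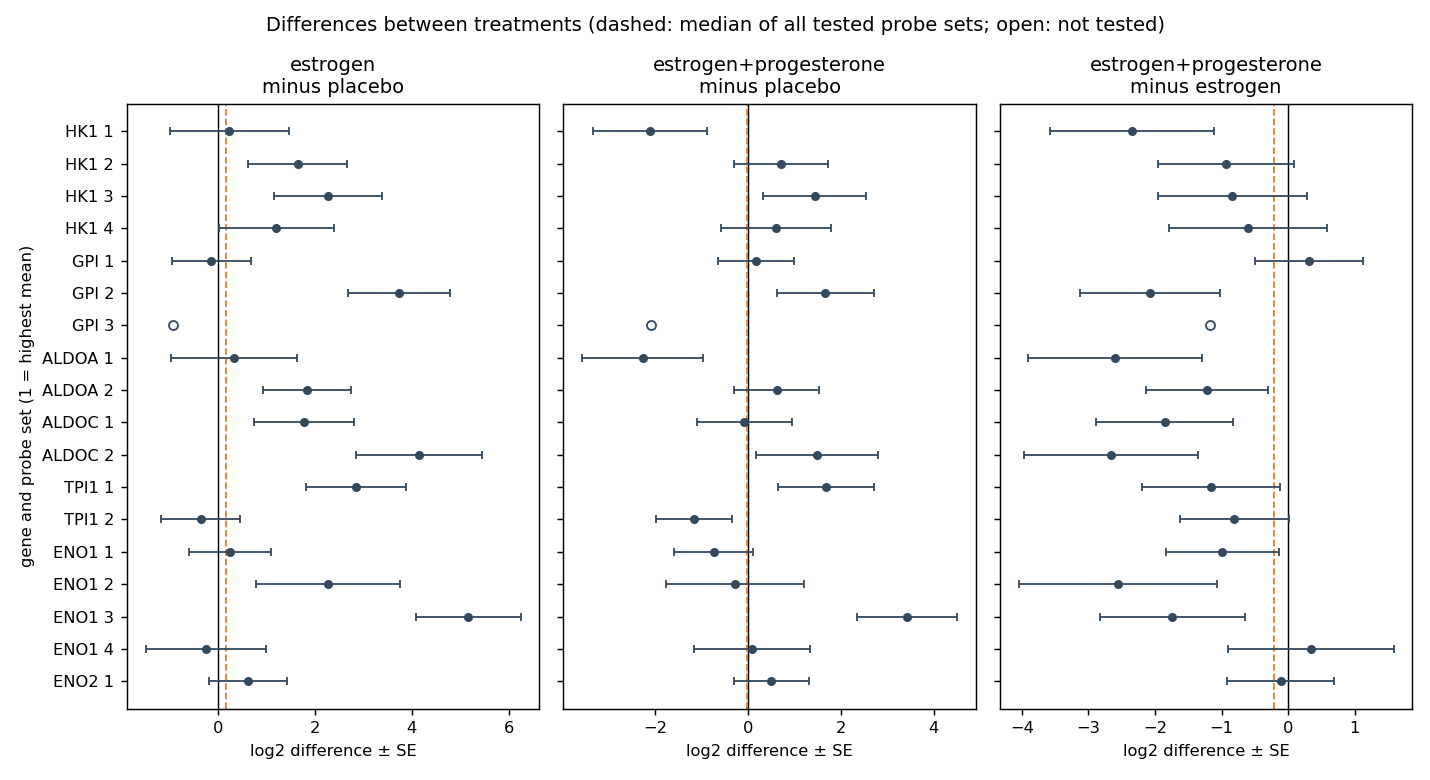
Log2 differences of the 18 glycolysis probe sets between treatments, with moderated standard errors from limma (n = 2 monkeys per group); the dashed line is the median of all tested probe sets and the open point is GPI set 3, which was not tested. With estrogen against placebo 14 of 18 points lie above 0, and with both hormones against estrogen 16 of 18 lie below 0.

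The first contrast, estrogen against placebo, addresses the effect of estrogen given alone. Of the 18 probe sets, 14 were higher with estrogen, and the median log2 difference was 1.42, against 0.17 for all tested probe sets. Across the array 55.2% of tested probe sets had a difference above 0. The count was 15, 16 and 18 of 18 without normalization, with median-centering and with scaling to hybridization controls. The 18 probe sets come from 7 genes. With 1 probe set per gene, that of the highest mean, 6 of 7 were above 0 and the median was 0.33. For all 9781 tested genes, counted in the same way, the median was 0.28 and 60.6% were above 0. The estrogen and placebo animals did not overlap for 9 probe sets in the upward direction, which 29.0% of all tested probe sets also did, and for 2 in the downward direction, where the background was 24.8%. Either way, 53.9% of all tested probe sets did not overlap. An unadjusted p under 0.05 was reached by 4 of the 17 tested, ENO1 set 3, GPI set 2, ALDOC set 2 and TPI1 set 1, all higher with estrogen. The filter took the mean over all 6 arrays. The placebo means of ENO1 set 3, GPI set 2 and TPI1 set 1 lay below its cut, and that of ALDOC set 2 above it. Those below it entered the test only through values outside the placebo group. The count of 4 is therefore not independent of the filter. On the whole array this held for 7.83%, with 4.59% higher and 3.24% lower. The adjusted p-values from limma ran from 0.635 to 0.969, and 0% of tested probe sets passed.

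Here the low-signal class holds the placebo pair and the high-signal class the estrogen pair. The effect of treatment and that of array quality on these probe sets therefore cannot be told apart. With the signal class as a covariate, which takes its size from the pair given both hormones, 8 of 18 were above 0 and the median was -0.52, against -0.19 for all tested. The GAPDH 3′ over 5′ ratio rests on 5′ signals below the floor on all 3 low-signal arrays. With its log2 as a covariate, 5 of 18 were above 0 and the median was -0.78. ALDOC set 1 then stood at -0.69 and -2.28, ALDOC set 2 at 0.67 and -2.98, GPI set 2 at 0.95 and -0.63, and ENO1 set 3 at 2.45 and 0.094. ENO2 stood at 0.56 and 0.23. With arrays weighted by their spread, GPI set 2 and ENO1 set 3 passed (adjusted p = 0.0396 and 0.0280 from limma), among 434 probe sets called on the array. The median of the 18 was between 1.004 and 1.87 when each array was left out in turn.

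The comparison of both hormones with placebo used the same placebo arrays. Here 11 of 18 probe sets were above 0 and the median was 0.33, against -0.03 for all tested probe sets, of which 48.8% were above 0. With 1 probe set per gene, 3 of 7 were above 0 and the median was -0.08, against -0.10 for all tested genes. The groups did not overlap for 5 probe sets in the upward direction (background 12.4%) and for GPI set 3 and TPI1 set 2 in the downward direction (background 12.3%, and 24.7% in either). The largest difference was again that of ENO1 set 3, at 3.42 ± 1.09 (adjusted p = 0.992 from limma), the 1 member with an unadjusted p under 0.05, where the background was 3.30%, with 2.05% higher and 1.25% lower. Among the arrays of this comparison, ENO1 set 3 exceeded the floor on estrogen+progesterone 1 alone. The size of its difference thus rests partly on readings below the floor. As in the first contrast, ENO1 set 3 entered the test only through values outside the placebo group. The lowest differences were those of ALDOA set 1, at -2.28 ± 1.31, and HK1 set 1, at -2.12 ± 1.24. TPI1 set 2 was below the floor in both animals with both hormones. The floor of estrogen+progesterone 2, at 283, was above both placebo signals of this probe set, 262 and 235. No bound on the fold is therefore given. As before, 0% of the array passed.

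The values of that comparison depended on 1 animal and on the covariate. Without estrogen+progesterone 2 the median was 0.95, and 13 of 18 were above 0. Without estrogen+progesterone 1 it was -0.20, with 7 above 0. ALDOC set 1 went from -0.08 with all arrays to 1.14 and -1.27, and ENO1 set 2 from -0.29 to 1.87 and -2.22. With all arrays but no normalization these probe sets stood at 0.31 and 0.22, so their direction depends on the scaling. HK1 set 1 stood at -0.03 and -4.02, and ALDOA set 1 at -0.28 and -4.06. ENO2 stood at 0.58 and 0.44. With all arrays and the signal class as a covariate the median was -0.24, with 7 of 18 above 0, and with the GAPDH ratio it was -1.002, with 6 above 0. It was 0.89 with median-centering and 1.09 when scaled to hybridization controls, each with 13 above 0.

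The comparison of both hormones with estrogen asks what progesterone added. Of 18 probe sets, 16 were lower with both hormones, with a median of -1.17 against -0.22 for all tested probe sets, of which 42.6% were above 0. With 1 probe set per gene, 6 of 7 were lower and the median was -1.17, against -0.44 for all tested genes. The groups did not overlap for 7 probe sets, all lower with both hormones (background 16.6%; 17.6% higher and 34.2% in either direction), among them HK1 set 1 at -2.35 ± 1.24, GPI set 2 at -2.07 ± 1.05 and ENO1 set 1 at -0.99 ± 0.85. No member had an unadjusted p under 0.05, where 1.76% of all tested probe sets did, 1.48% higher and 0.277% lower, and adjusted p from limma ran from 0.799 to 0.970. Without estrogen+progesterone 2 the median was -0.44, with 4 of 18 above 0. Without estrogen+progesterone 1, which leaves the low-signal array to stand for the group and assumes that it varies like the others, limma called 3599 probe sets. HK1 set 1 (-4.24), GPI set 2 (-3.28) and ALDOA set 1 (-4.37) were then among the called, with adjusted p from 0.0347 to 0.0426. With the GAPDH 3′ over 5′ ratio as a covariate the median was -0.21.

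Over the 18 probe sets, the arrays most alike were not those of 1 treatment. Estrogen 1 and estrogen+progesterone 1 differed by a median of 0.17 log2 units, and 13 of 18 probe sets were within 0.5 between them. Estrogen 1 and estrogen 2 differed by a median of 0.91, the placebo pair by 0.64, and the pair given both hormones by 1.62. This likeness is not particular to the glycolysis probe sets. Over all 26383 tested probe sets, estrogen 1 correlated at 0.913 with estrogen+progesterone 1 and at 0.862 with estrogen 2. The placebo pair correlated at 0.518 and the pair given both hormones at 0.0005. The highest of the 6 normalized values was on estrogen 2 for 11 probe sets, and the lowest was on estrogen+progesterone 2 for 8. The arrays estrogen 1 and estrogen+progesterone 1 had similar GAPDH ratios, 28.0 and 22.0, while estrogen 2 had the lowest, 3.41. Any link between these ratios and the likeness of the arrays was not tested.

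The genes most like ALDOC and ENO2 in their profile were sought among 9774 genes outside the members, by the root mean square difference of the normalized log2 values over the 6 arrays, each profile minus its own mean. The nearest to ALDOC set 1 was GFAP, the intermediate filament of astrocytes, at 0.17 log2 units, where the ALDOC profile itself had an SD of 1.32. GFAP gave signals of 5358 and 2224 in the placebo animals, 12884 and 18296 in the estrogen animals, and 13706 and 756 in the estrogen+progesterone animals. Its log2 difference of estrogen minus placebo was 1.80 ± 1.02, beside 1.78 ± 1.03 for ALDOC set 1. GFAP was picked for likeness on these same 6 arrays, so the near-equal differences follow from the choice and are no separate evidence. MPV17 and SSX2IP followed at 0.19 and 0.22. The profile of ALDOC set 2 was of a different size, with estrogen 2 far above the rest. For ENO2 the nearest genes were HSPBP1, ACTR6 and TUSC3, at 0.089 to 0.091, where the ENO2 profile had an SD of 0.33. The neuronal gene STMN2, chosen after its values were seen, had 1073 and 2941 in the placebo animals, 6209 and 10949.7 in the estrogen animals, and 5576 and 397 in the estrogen+progesterone animals. On estrogen+progesterone 2 it had its lowest signal of the 6, while ENO2 stood at 385 there, above both placebo animals. At 397 and 385 the 2 genes were almost equal on that array, at 1.40 and 1.36 times its floor.

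**Figure D4:**
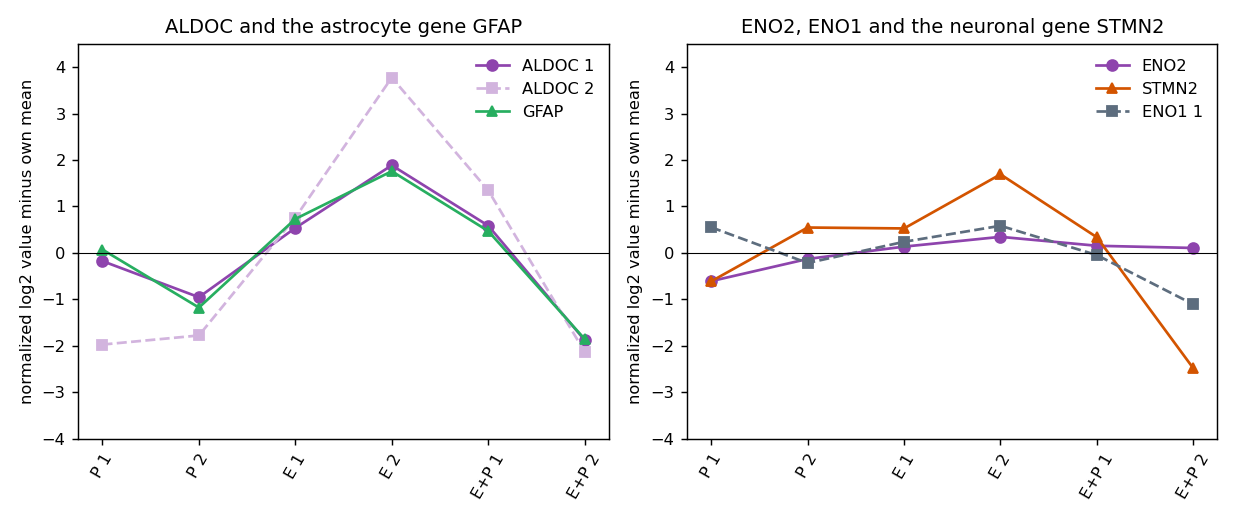
Normalized log2 values minus the mean of each probe set over the 6 arrays (P placebo, E estrogen, E+P both hormones, 1 monkey each). ALDOC set 1 and GFAP lie within a root mean square difference of 0.17 of each other, ALDOC set 2 peaks on estrogen 2, and ENO2 varies less than ENO1 set 1 or STMN2.

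For the other genes of glucose metabolism, 1 probe set stood for each gene, that with the highest mean. No gene of these lists passed in any comparison, and 60.6% of all 9781 tested genes were above 0 with estrogen against placebo, with a median of 0.28. Of 9 other glycolysis enzymes tested, 8 were above 0 (median 0.81), with GAPDH at 1.94 ± 1.31 by a probe set outside the controls, PKM, pyruvate kinase, at 1.33 ± 1.06, BPGM at 0.99 ± 1.003 and HK3, another hexokinase, at -1.52 ± 0.85. Of 7 genes for glucose and lactate transport, 1 was above 0 (median -0.81). The lactate transporter genes SLC16A1 and SLC16A7 stood at 1.12 ± 0.87 and -1.41 ± 0.93, and SLC2A1, the glucose transporter of the blood-brain barrier and astrocytes, at -0.96 ± 0.95.

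Of 7 genes that regulate glycolytic flux or pyruvate entry into mitochondria, 6 were above 0 (median 1.12). PFKFB3, whose product makes the main activator of phosphofructokinase, read 173 and 194 in the placebo animals, 1418 and 1817 in the estrogen animals, and 918 and 281 in the estrogen+progesterone animals. Its difference of 2.99 ± 0.89 amounted to at least 6.40-fold over the placebo floors (adjusted p = 0.635 from limma). PDK2, a kinase that turns off pyruvate dehydrogenase, stood at 2.56 ± 0.95, PDP1, the opposing phosphatase, at 1.49 ± 1.07 and PFKFB1 at -1.78 ± 1.10. PYGL, a glycogen phosphorylase, gave 247 and 248 in the placebo animals, 1788 and 1823 in the estrogen animals, and 1805 and 157 in the estrogen+progesterone animals. It was 1 of 2 glycogen genes tested, both above 0, and of 3 genes of the pentose phosphate branch 2 were above 0. For both hormones minus estrogen the medians were -0.85 for the other glycolysis enzymes, -0.20 for transport, -1.44 for flux regulators, and -0.44 for all tested genes.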

How the data were processed

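Each array has 1 linear intensity for every probe set in the deposited table, and the trimmed mean of each array lies near 200, as the values show. Per the labels, a Qiagen microkit was used for the RNA and an Enzo kit for biotin labelling; the summarization software is not given in the sources used here. Gene symbols come from the platform annotation. Its build is not named, so positions and sequences are not given. The members and all gene lists were chosen with earlier results of these data known.

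After adding 16, log2 intensities were quantile normalized. The 26383 probe sets in the upper part by mean (filter at the 50th percentile) were fitted with a mean per group over all 6 arrays in limma 3.58.1 (R 4.3.3; empirical Bayes, 3 residual degrees of freedom, two-sided). An exact permutation test of 2 animals against 2 cannot give p below 0.333, so none was used. Low differences are understated by the added 16. The code was checked on simulated data. All probe sets of the 10 genes are named. Of each other list of glucose metabolism, at most 4 tested genes are named, those with the largest absolute difference of estrogen minus placebo. GFAP is named by its likeness to ALDOC; TPH2, FEV, HTR1A and STMN2 among the cell type markers were chosen after their values were seen. A floor bound uses the lowest normalized value above the floor of each array. Low-signal arrays had a share of probe sets above the floor under the mean share. Alternatives were the offset, normalization, filter, prior, weights, the signal class, the replicate number, fits of 2 groups and leaving out each array; the GAPDH ratio, hybridization control scaling and floor bounds without each array were added after seeing the data.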

Additional observations from a re-analysis of the deposited data

How the results depend on the processing

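Of 1026 alternative values for the 54 probe set differences, 951 kept their sign and their side of the threshold, 70 changed sign and 5 passed the threshold, and 24 differences kept their sign in all 19 alternatives. Quantile normalization moved the median of all tested probe sets for estrogen minus placebo from -0.09 to 0.17, and median-centering gave 1.15. Array weights called 434 probe sets in that comparison, against 0, and leaving out 1 array gave 0 to 3599 calls for both hormones minus estrogen. The number of probe sets with an unadjusted p under 0.05 was 2065, 870 and 464 in the contrasts of estrogen with placebo, both hormones with placebo, and both hormones with estrogen. The replicate numbers are not stated to pair the animals, and deviations of same-numbered arrays correlated at -0.06 to 0.08 across probe sets; the fit with the replicate number as a block again called 0 in each comparison, with medians of the 18 of 1.42, 0.33 and -1.17. Causes of the changes below were not tested. The median of the 18 moved to 2.78 with median-centering, to -0.52 with the signal class, to -0.78 with the GAPDH ratio and to 3.94 with hybridization control scaling for estrogen minus placebo, to -1.002 with the GAPDH ratio and -0.24 with the signal class for both hormones minus placebo, and to -3.24 with hybridization control scaling for both hormones minus estrogen.

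For estrogen minus placebo, the values that changed sign were 0.038 for ENO1 set 4 with offset 1, 0.55 for GPI set 1 without normalization, and 1.80 for GPI set 1 and 0.26 for ENO1 set 4 with median-centering. With the signal class they were -3.94 and -1.02 for HK1 sets 1 and 2, -3.71 for ALDOA set 1, -0.69 for ALDOC set 1, and -0.82 and -1.77 for ENO1 sets 1 and 2. With the GAPDH ratio they were -5.04, -0.58 and -0.026 for HK1 sets 1, 2 and 4, -0.63 for GPI set 2, -5.38 and -0.93 for ALDOA sets 1 and 2, -2.28 and -2.98 for ALDOC sets 1 and 2, and -1.17, -2.75 and 0.25 for ENO1 sets 1, 2 and 4. With hybridization control scaling they were 2.95 and 0.52 for GPI sets 1 and 3, 1.11 for TPI1 set 2 and 1.42 for ENO1 set 4. Leaving out 1 array gave -0.80 to 3.09 for HK1 set 4, -0.43 to 0.17 for GPI set 1, -0.51 to 1.18 for ALDOA set 1, -0.14 to 0.60 for ENO1 set 1 and -2.52 to 1.79 for ENO1 set 4.

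For both hormones minus placebo they were -0.20 for ENO1 set 4 with offset 64, 0.0016 for ALDOC set 1 with the 2 groups alone, and for ALDOC set 1 and ENO1 set 2 they were 0.31 and 0.22 without normalization, 0.76 and 0.67 with median-centering, and 0.96 and 0.87 with hybridization control scaling. With the signal class they were -0.63 for HK1 set 2, -0.050 for GPI set 1, -0.25 for ALDOC set 2 and -0.22 for ENO1 set 4. With the GAPDH ratio they were -0.63 and -0.14 for HK1 sets 2 and 4, -0.96 for GPI set 2, -1.05 for ALDOA set 2 and -2.79 for ALDOC set 2. Leaving out 1 array gave -0.62 to 2.23 and -1.42 to 2.46 for HK1 sets 2 and 4, -0.046 to 0.42 for GPI set 1, -1.27 to 1.14 and -0.25 to 3.55 for ALDOC sets 1 and 2, and -2.24 to 1.87 and -2.17 to 2.15 for ENO1 sets 2 and 4. For both hormones minus estrogen they were -0.013 for GPI set 1 without normalization, -0.81 with median-centering and -1.77 with hybridization control scaling, -0.60 for ENO1 set 4 with the last, 0.39 and 0.26 for HK1 sets 2 and 3 with the signal class, and 0.19 for ALDOC set 2, 0.29 for ENO1 set 3 and 0.040 for ENO2 with the GAPDH ratio. Leaving out 1 array gave -2.15 to 0.43 and -1.83 to 0.28 for HK1 sets 2 and 3, and -0.015 to 0.58 for GPI set 1.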
